A study of Mus musculus with 6 samples.

Results

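The endoplasmic reticulum (ER) chaperone and unfolded protein response genes described here are 10 genes chosen by name: Hspa5, Hsp90b1, Dnajb9, Pdia4, Creld2, Sdf2l1, Herpud1, Xbp1, Atf6 and Ddit3. The deposited table lists 57010 gene identifiers, of which 11 carry these symbols because Ddit3 is listed under a pair of identifiers. All 10 genes passed the filter of at least 1 TPM (a transcript level scaled by length and by library) in at least 3 libraries, which left 13542 genes to test. RNA was taken from heart ventricles at postnatal day 14, in 3 Cend1-KO libraries and 3 control libraries, which carry the replicate numbers 1, 3 and 4 in both groups. The series' title names suppression of CEND1 by LSD1 (encoded by Kdm1a) in heart regeneration, and the only comparison its labels imply is Cend1-KO against control. The labels describe neither the allele nor the cells it was deleted in, nor the strain of either group. Nor do they state that the libraries of a group are from different animals, and p-values therefore rest on the spread among libraries, part of which may be technical.

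Proteins that enter the secretory pathway fold in the ER with the help of lumenal chaperones, co-chaperones and disulfide isomerases. When unfolded protein accumulates, the membrane sensors IRE1, PERK and ATF6 start the unfolded protein response: IRE1 splices Xbp1 mRNA, PERK phosphorylates eIF2-alpha so that ATF4 is translated, and ATF6 is cut in the Golgi to release a transcription factor. The targets include the chaperone genes, the ER-associated degradation machinery and, through PERK and ATF4, Ddit3. In the heart the ER (sarcoplasmic reticulum in muscle cells) also stores calcium. A level per gene shows neither Xbp1 splicing nor ATF6 cleavage.

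The ER stress response element, the best known site of ATF6 and XBP1 in chaperone promoters, is written as CCAAT followed by 9 bases and then by CCACG. A second form, first described for Herpud1, is ATTGG followed by 1 base and then by CCACG. Both were searched on both strands in the RefSeq promoter table of build GRCm38.p6, which gives 250 bases before and 50 bases after each transcript start for 27025 genes, and 9 of the 10 genes were found in it. The first form was present in 3 of the 9 (Hspa5, Hsp90b1 and Creld2) and in 37 genes, or 0.137%, of the whole table. The second form was present in Herpud1 and in 12 genes, or 0.0444%, of the table. The 4 promoters are shown because they carry these elements, which stand in capitals. The stretch is given 5′ to 3′ on the gene's own strand, and positions are counted from the RefSeq start, which can differ from the gene start used for the coordinates given with the values.
Hspa5, chr2:34771840-34772089, plus strand: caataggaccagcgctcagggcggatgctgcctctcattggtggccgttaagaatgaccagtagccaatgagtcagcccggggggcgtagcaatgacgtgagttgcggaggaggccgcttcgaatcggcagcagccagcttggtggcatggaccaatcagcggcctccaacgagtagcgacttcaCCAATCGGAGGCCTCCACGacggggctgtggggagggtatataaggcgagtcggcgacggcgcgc
Hsp90b1, chr10:86705445-86705694, minus strand: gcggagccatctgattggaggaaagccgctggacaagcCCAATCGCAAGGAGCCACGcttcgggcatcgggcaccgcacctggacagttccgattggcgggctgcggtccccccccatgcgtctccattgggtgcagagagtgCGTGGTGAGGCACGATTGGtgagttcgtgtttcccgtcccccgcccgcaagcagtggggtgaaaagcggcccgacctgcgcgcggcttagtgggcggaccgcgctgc
Creld2, chr15:88819480-88819578, plus strand: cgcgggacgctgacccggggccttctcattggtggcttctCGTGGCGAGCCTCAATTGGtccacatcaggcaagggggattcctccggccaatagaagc
Herpud1, chr8:94386337-94386427, plus strand: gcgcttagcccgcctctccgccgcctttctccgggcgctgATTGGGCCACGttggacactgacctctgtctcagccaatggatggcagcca

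In Hspa5 the element lay at positions -65 to -47. Hsp90b1 held a pair of elements, at -212 to -194 and, on the opposite strand, at -107 to -89. In Creld2 it lay on the opposite strand at -126 to -108, and in Herpud1 the second form lay at -52 to -42. The 5 bases CCACG alone were present in 7 of the 9 promoters, against 35.5% of genes in the table, and these matches include those within the elements above. TGACGTGG, the unfolded protein response element, was present in 0 of the 9 windows and in 0.714% of genes. The composite site of ATF4 and C/EBP factors, TGATG followed by 1 base and AA, was present in Herpud1 on the opposite strand at -112 to -105 and in 4.51% of genes. These matches are letters in a window and say nothing of binding in these hearts.

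Cend1, the deleted gene, had values of 0 throughout the Cend1-KO group, against 1.44, 1.99 and 1.54 TPM in the controls, and was called lower (limma, log2 difference -1.40, adjusted p = 0.00111). Kdm1a had 16.1, 9.49 and 13.01 TPM in Cend1-KO libraries, against 16.2, 15.9 and 18.1 TPM in controls, and was not called (log2 difference -0.38, adjusted p = 0.503). Depth is unknown, since TPM keeps none. The libraries were shifted against each other: mitochondrial genes, their nuclear copies and hemoglobin took 28.4%, 53.2% and 34.4% of TPM in Cend1-KO replicates 1, 3 and 4, against 27.4% to 29.6% in controls, and median-of-ratios factors were 1.24, 0.714 and 0.980 in Cend1-KO libraries, against 0.985 to 1.13 in controls. Over all tested genes the median log2 difference was -0.11 as deposited and 0.00 after dividing by these factors, so results on the 10 genes are given on both scales. Cardiomyocyte markers were abundant, with a summed level of 34219 to 50734 TPM in Cend1-KO libraries against 60527 to 67328 TPM in controls. Differences were negative for all 12 of these markers on both scales, and 0 of the 12 were called. The median was -0.54 as deposited and -0.41 after scaling. In bulk ventricle, fewer cells of a type and less RNA per cell cannot be told apart.

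None of the 10 genes was called between Cend1-KO and control ventricles. As deposited, limma's adjusted p ran from 0.450 (Herpud1) to 0.919 (Creld2), and 0 of the 10 had an unadjusted p under 0.05. The background was 0.79% of tested genes called higher and 0.908% called lower, and the count of 0 among 10 is near that background. Differences were positive for 8 of the 10 and negative for Atf6 and Ddit3, with a median of 0.25 on the log2(TPM + 1) scale, while 37.6% of all tested genes were positive. After median-of-ratios scaling 8 were again positive, with a median of 0.39 beside 50.3% positive genes. Again 0 of the 10 were called in either direction, with 6.17% of tested genes called higher and 4.14% called lower, and Hsp90b1, Dnajb9, Herpud1 and Xbp1 had an unadjusted p under 0.05. All values of both groups stood apart in 2 of the 10 genes as deposited, Dnajb9 and Herpud1, where 5.67% of tested genes stood apart upward and 18.6% downward. After scaling they stood apart in Dnajb9 and Xbp1, where 17.9% did so upward and 17% downward.

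**Figure D1:**
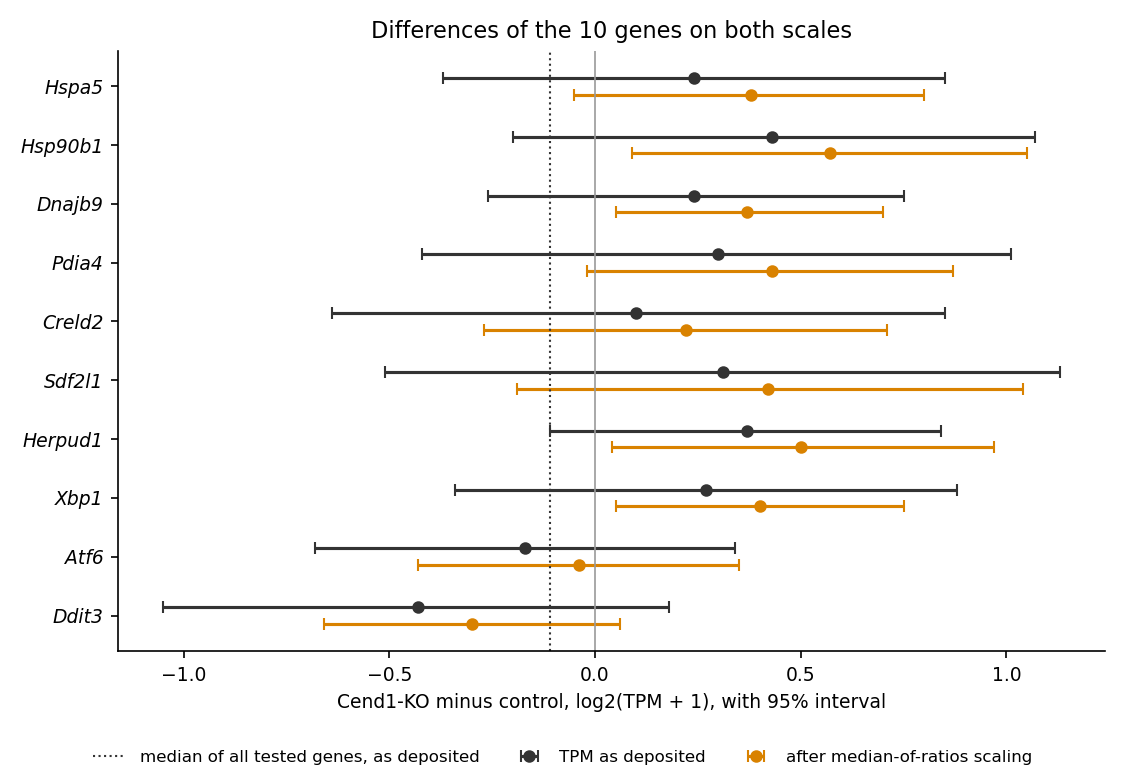
Log2 difference of each of the 10 genes, Cend1-KO minus control, with its 95% interval, for TPM as deposited and after median-of-ratios scaling (3 libraries per group). The dotted line is the median of all tested genes as deposited (-0.11). The intervals of Hsp90b1, Dnajb9, Herpud1 and Xbp1 lie above 0 only after scaling, and no gene was called on either scale.

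Among the chaperones of the ER lumen, Hspa5 (chr2:34771970-34777547, plus strand, mm10) encodes BiP, the Hsp70 chaperone that also holds the stress sensors inactive. Hspa5 had 204, 105 and 117 TPM in Cend1-KO replicates 1, 3 and 4, against 110.5, 91.7 and 150.3 TPM in control replicates 1, 3 and 4. Cend1-KO replicate 1 was the highest of the 6 libraries and control replicate 4 came next, so the groups overlapped. The means were 142 ± 54.3 TPM in Cend1-KO and 118 ± 29.9 TPM in control ventricles (SD, n = 3 each), and the log2 difference was 0.24 ± 0.28 (SE) with a 95% interval of -0.37 to 0.85 (limma, adjusted p = 0.732). After scaling it was 0.38 ± 0.19 (adjusted p = 0.227). Without Cend1-KO replicate 1 the difference was -0.05 as deposited and 0.27 after scaling.

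Hsp90b1 (chr10:86690209-86705509, minus strand) encodes GRP94, the Hsp90 of the ER lumen. Hsp90b1 had 193, 102 and 105 TPM in Cend1-KO replicates 1, 3 and 4, against 90.4, 70.9 and 130.1 TPM in controls. Again Cend1-KO replicate 1 and control replicate 4 were the 2 highest libraries, and the groups overlapped. Its log2 difference of 0.43 ± 0.30 (95% interval -0.20 to 1.07, limma, adjusted p = 0.513) was the largest positive one of the 10. Without Cend1-KO replicate 1 it was 0.13 as deposited and 0.46 after scaling. After scaling the levels were 156, 143 and 107 in Cend1-KO libraries, against 86.3, 72.0 and 116 in controls, and the difference was 0.57 ± 0.21 (95% interval 0.09 to 1.05, unadjusted p = 0.0241, adjusted p = 0.117). Across the alternative settings its adjusted p ran from 0.0415 to 0.867, as described with Xist below.

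Dnajb9 (chr12:44205559-44210326, minus strand), which encodes the J-domain co-chaperone ERdj4 of BiP, had the tightest levels of the chaperone group. Dnajb9 had 20.3, 15.9 and 16.7 TPM in Cend1-KO libraries, against 14.3, 14.3 and 15.5 TPM in controls. Every Cend1-KO library was above every control, on both scales. The means were 17.6 ± 2.38 TPM in Cend1-KO and 14.7 ± 0.735 TPM in control ventricles (SD, n = 3 each), with a log2 difference of 0.24 ± 0.23 (limma, adjusted p = 0.659), and after scaling 0.37 ± 0.15 (unadjusted p = 0.029, adjusted p = 0.130). Leaving out Cend1-KO replicate 1 gave 0.14 as deposited and 0.45 after scaling.

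Pdia4 (chr6:47796141-47813430, minus strand), the disulfide isomerase ERp72, had 33.0, 11.8 and 18.4 TPM in Cend1-KO libraries, against 13.5, 13.4 and 21.0 TPM in controls. Cend1-KO replicate 1 was the highest and Cend1-KO replicate 3 the lowest of all 6 libraries. Its log2 difference was 0.30 ± 0.33 (limma, adjusted p = 0.713), and after scaling 0.43 ± 0.20 (adjusted p = 0.194). It was -0.07 as deposited and 0.24 after scaling without Cend1-KO replicate 1.

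**Figure D2:**
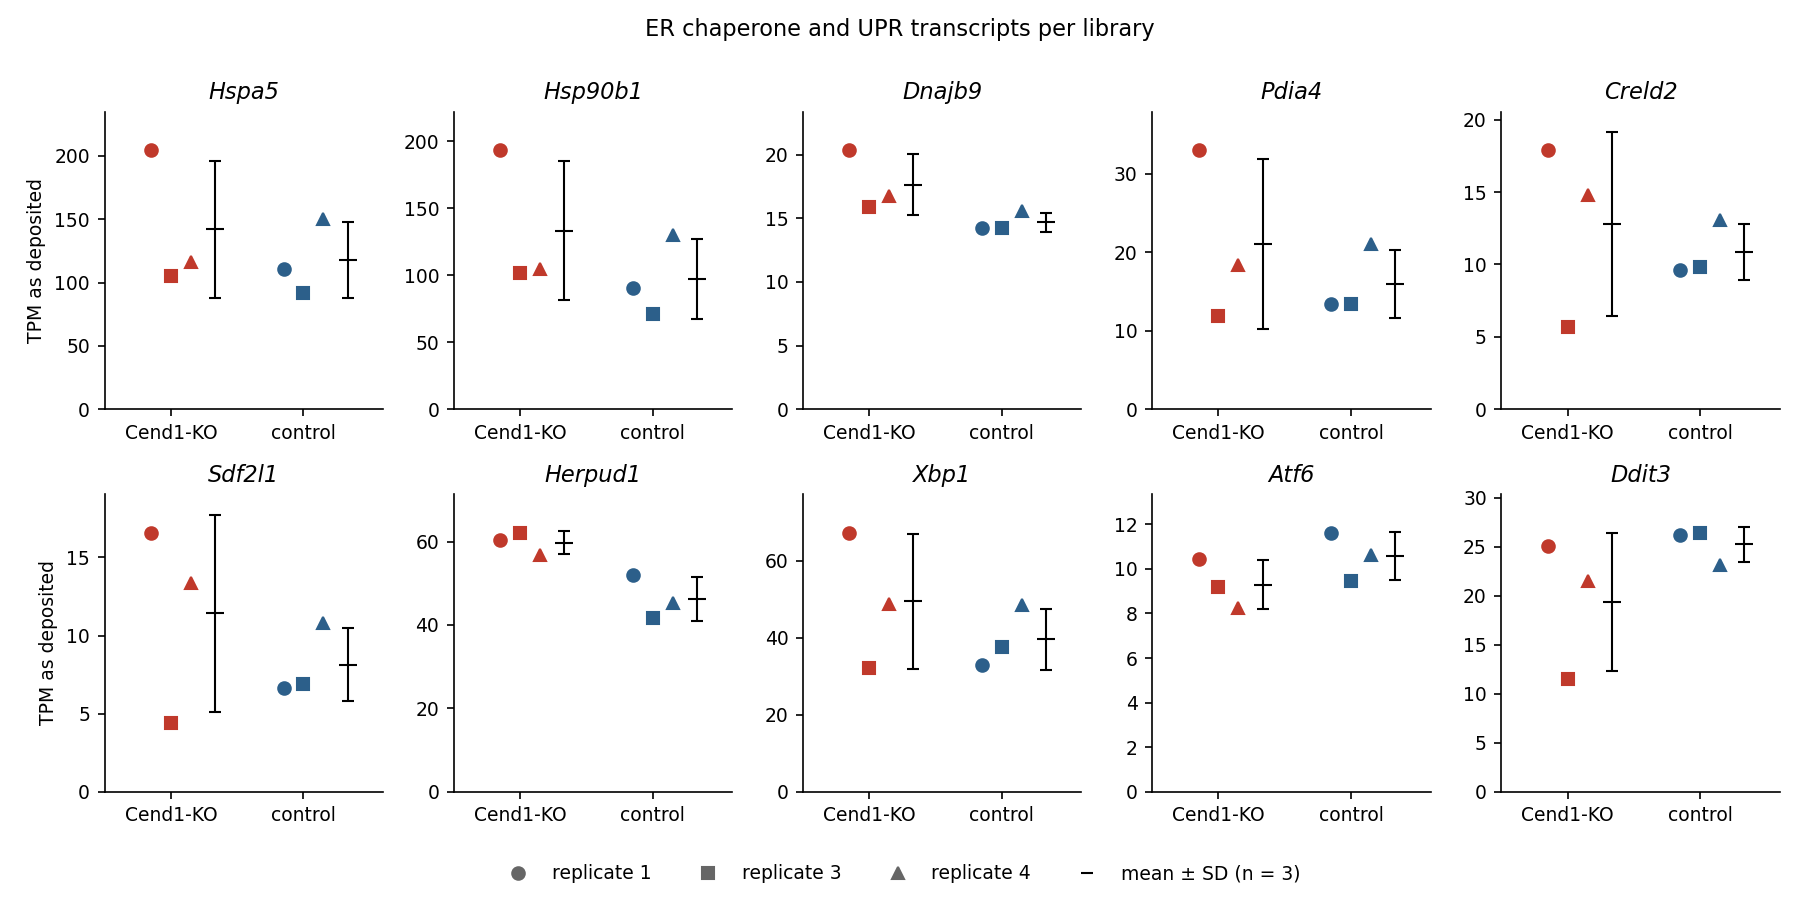
TPM as deposited of the 10 genes in each library, Cend1-KO on the left and control on the right of each panel, with symbols for replicates 1, 3 and 4 and bars for the mean ± SD (n = 3 each). Hspa5, Hsp90b1, Dnajb9, Pdia4, Creld2, Sdf2l1 and Xbp1 have their highest value in Cend1-KO replicate 1, and the groups stand apart in Dnajb9 and Herpud1.

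Creld2 and Sdf2l1 encode small ER proteins that are induced in ER stress: Creld2 has disulfide isomerase activity, and Sdf2l1 works with BiP and its co-chaperone ERdj3. Creld2 (chr15:88819646-88826683, plus strand) had 17.9, 5.69 and 14.8 TPM in Cend1-KO libraries, against 9.59, 9.85 and 13.1 TPM in controls, and its log2 difference was 0.10 ± 0.35 (limma, adjusted p = 0.919). Sdf2l1 (chr16:17130138-17132383, minus strand) had 16.6, 4.39 and 13.3 TPM in Cend1-KO libraries, against 6.63, 6.91 and 10.8 TPM in controls, and its log2 difference was 0.31 ± 0.38 (95% interval -0.51 to 1.13, adjusted p = 0.741). As deposited, Cend1-KO replicate 3 was the lowest and Cend1-KO replicate 1 the highest of the 6 libraries in both genes. The highest deposited Sdf2l1 level was 3.77 times the lowest within the Cend1-KO group, the widest spread of the 10 genes. After scaling the difference was 0.22 ± 0.22 for Creld2 (limma, adjusted p = 0.531). For Sdf2l1 it was 0.42 ± 0.27 (95% interval -0.19 to 1.04, limma, adjusted p = 0.339). On that scale Cend1-KO replicate 3 was again the lowest, and Cend1-KO replicate 4 was the highest, in both genes. Without Cend1-KO replicate 1 the differences were -0.19 for Creld2 and -0.02 for Sdf2l1 as deposited, and 0.10 and 0.26 after scaling.

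Without Cend1-KO replicate 3, the library with the largest mitochondrial and hemoglobin share, Sdf2l1 was called higher, by 0.83 as deposited (limma, adjusted p = 0.0480) and by 0.77 after scaling (adjusted p = 0.0313). Of all tested genes, 3.77% were called higher without that library as deposited and 5.94% after scaling. Over all alternatives its adjusted p ran from 0.0313 to 0.976. Markers of plasma and B cells, which are rich in ER, had a summed level of 79.1, 19.1 and 59.4 TPM in Cend1-KO replicates 1, 3 and 4, against 25.6, 24.5 and 71.5 TPM in controls. They were high in the 3 libraries where Creld2, Sdf2l1 and Pdia4 were highest, and of the 7 tested markers of that list 0 were called as deposited and 1 after scaling, Sdc1 (0.68, adjusted p = 0.0145). Igkc, the kappa light chain constant region, had 31.2, 3.84 and 17.9 TPM in Cend1-KO libraries, against 2.86, 3.43 and 25.1 TPM in controls. Ighm went the other way, with a difference of -0.17 as deposited (limma, adjusted p = 0.888). Of the 7 tested markers, 5 had a positive difference as deposited and 6 after scaling. The part of plasma and B cells in the result was not tested.

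Herpud1 (chr8:94386438-94395377, plus strand) encodes a membrane protein of the ER-associated degradation complex, which returns misfolded protein to the cytosol. Herpud1 had 60.3, 62.1 and 56.7 TPM in Cend1-KO libraries, against 51.9, 41.6 and 45.2 TPM in controls. Every Cend1-KO library was above every control as deposited. The means were 59.7 ± 2.75 TPM in Cend1-KO and 46.3 ± 5.25 TPM in control ventricles (SD, n = 3 each), and the log2 difference was 0.37 ± 0.22 (95% interval -0.11 to 0.84, limma, adjusted p = 0.450). After scaling the levels were 48.6, 87.0 and 57.8 in Cend1-KO libraries, against 49.6, 42.2 and 40.2 in controls. The groups then overlapped, because Cend1-KO replicate 1 lay under control replicate 1, and the difference was 0.50 ± 0.21 (adjusted p = 0.149). The order of its libraries was another one than in the chaperones: Cend1-KO replicate 3, the lowest library in Creld2, Sdf2l1 and Pdia4 as deposited, was its highest.

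Of the transcription factors, Xbp1 (chr11:5520659-5525893, plus strand) had 67.2, 32.1 and 48.8 TPM in Cend1-KO libraries, against 33.0, 37.5 and 48.4 TPM in controls. Cend1-KO replicate 3 was the lowest library as deposited, and the log2 difference was 0.27 ± 0.28 (limma, adjusted p = 0.693). After scaling the levels were 54.2, 45.0 and 49.8 in Cend1-KO libraries, against 31.5, 38.1 and 43.0 in controls, with every Cend1-KO library above every control and a difference of 0.40 ± 0.16 (unadjusted p = 0.0279, adjusted p = 0.127). Without Cend1-KO replicate 1 the difference was 0.02 as deposited and 0.34 after scaling, and without Cend1-KO replicate 3 it was 0.54 as deposited and 0.47 after scaling. These levels sum spliced and unspliced Xbp1 mRNA.

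Atf6 (chr1:170704674-170867771, minus strand), which encodes the sensor that is cut to a transcription factor, had 10.4, 9.18 and 8.26 TPM in Cend1-KO libraries, against 11.6, 9.45 and 10.6 TPM in controls. Its log2 difference was -0.17 ± 0.24 (95% interval -0.68 to 0.34, limma, adjusted p = 0.777), and -0.04 after scaling (adjusted p = 0.898). The groups overlapped, and the sign turned under 4 of the alternatives.

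Ddit3 (chr10:127290774-127296288, plus strand) encodes CHOP, a factor induced through PERK and ATF4 that is linked to cell death in prolonged stress. Ddit3 had 25.1, 11.5 and 21.5 TPM in Cend1-KO libraries, against 26.2, 26.4 and 23.2 TPM in controls. Only Cend1-KO replicate 3 lay far below the rest, and the groups overlapped because Cend1-KO replicate 1 was above control replicate 4. The log2 difference was -0.43 ± 0.29 (95% interval -1.05 to 0.18, limma, adjusted p = 0.497), and -0.30 after scaling (adjusted p = 0.246). Without Cend1-KO replicate 3 it was -0.12 as deposited and -0.18 after scaling, and without Cend1-KO replicate 1 it was -0.64 as deposited and -0.34 after scaling. Ddit3 is uncertain: a second identifier of the same symbol was listed at 0 in all libraries, and Mars, on the opposite strand with up to 15.6 TPM, overlaps it in a library kit that is not stated to keep strand. Genes that overlap the other 9 and have a value in the table were at 0.26 TPM or lower.

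**Figure D3:**
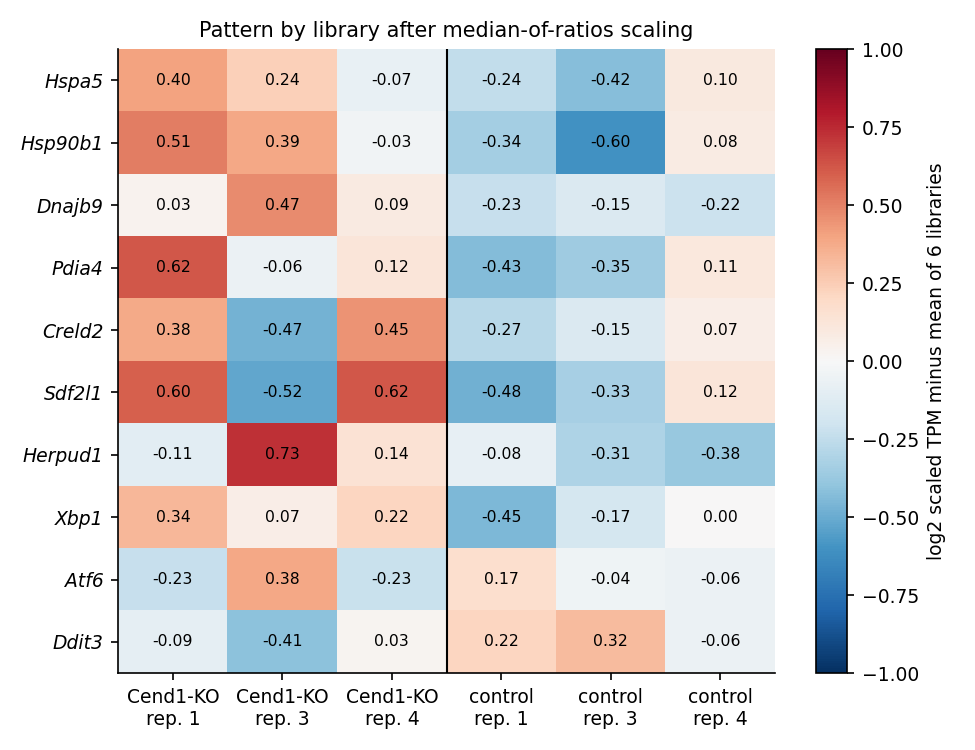
Log2 level of each of the 10 genes in each library after median-of-ratios scaling, minus that gene's mean over the 6 libraries, with Cend1-KO libraries left of controls. Hspa5 and Hsp90b1 have their highest values in Cend1-KO replicate 1 (0.40 and 0.51), Herpud1 and Dnajb9 in Cend1-KO replicate 3 (0.73 and 0.47), while Creld2 and Sdf2l1 are lowest there (-0.47 and -0.52).

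The pattern over libraries split the 10 genes. Among 5961 other genes that averaged 10 TPM or more, the gene most like Hspa5 over the 6 libraries after scaling was Hsp90b1, with a Pearson r of 0.993 as a description. The next 4 were Prdx4, an ER peroxiredoxin, with 0.982, Ctnnb1, which encodes beta-catenin, with 0.982, Smurf2, a ubiquitin ligase, with 0.981, and Ctnnd1, which encodes p120-catenin, with 0.980. Pdia4 had 0.838 (rank 275 among genes with a symbol), Xbp1 0.740 (rank 668) and Dnajb9 0.535 (rank 1281), so many other genes were more like Hspa5. Herpud1 had 0.382, Creld2 0.256 and Ddit3 -0.84. Atf6 and Sdf2l1 averaged under 10 TPM and were not compared. The 6 points share library-wide shifts that the scaling may leave. Xist, the RNA of the inactive X chromosome, had 7.37, 0.0246 and 0.0376 TPM in Cend1-KO replicates 1, 3 and 4, against 0.0176, 0.0555 and 16.4 TPM in controls. The 2 libraries with more than 1 TPM of Xist were those with the highest deposited Hspa5 and Hsp90b1. They also had the largest median-of-ratios factors, 1.24 in Cend1-KO replicate 1 and 1.13 in control replicate 4. The match did not hold after scaling, where Cend1-KO replicate 3 lay above control replicate 4 in both genes. When scaled values were fitted with Xist as a covariate, an alternative chosen after seeing the data, Hsp90b1 (0.61, limma, adjusted p = 0.0415) and Pdia4 (0.48, adjusted p = 0.0494) were called higher and the other 8 were not, where 7.67% of all tested genes were called higher. Over all alternatives the adjusted p of Pdia4 ran from 0.0494 to 0.955. With Xist as a covariate and no scaling, 0 of the 10 were called.

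A ratio of 2 genes within a library does not depend on how the library is scaled, and 45 ratios can be formed from the 10 genes. Each was written in the order that made its mean log2 value higher in Cend1-KO, so every difference is positive by construction. In 6 of the 45 the groups did not overlap. Each had the smallest two-sided p that an exact permutation test of 3 against 3 libraries can give, 0.1. After Benjamini-Hochberg adjustment over the 45 it was 0.692. Random order alone would set a share of 0.1 of ratios apart, and 6 of 45 is near that share. The 45 ratios share the 10 genes and are not independent, and the share over all gene pairs was not computed. The Hsp90b1 to Hspa5 ratio was 0.945, 0.968 and 0.898 in Cend1-KO replicates 1, 3 and 4, against 0.818, 0.773 and 0.865 in controls. On the log2 scale it averaged -0.10 ± 0.06 in Cend1-KO and -0.29 ± 0.08 in control ventricles (SD, n = 3 each), a difference of 0.19, although the levels of either chaperone alone varied by 1.64-fold to 1.94-fold within a group.

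With that order Atf6 and Ddit3, the genes with negative differences, were the denominators of the other 5 ratios. The log2 ratio of Herpud1 to Atf6 was 2.53, 2.76 and 2.78 in Cend1-KO libraries, against 2.16, 2.14 and 2.09 in controls, a difference of 0.56. Dnajb9 to Atf6 was 0.96, 0.79 and 1.02 in Cend1-KO libraries, against 0.30, 0.59 and 0.55 in controls. The 3 ratios over Ddit3 were higher by 0.83 for Herpud1, 0.73 for Xbp1 and 0.71 for Dnajb9, and they carry the uncertainty of Ddit3.

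**Figure D4:**
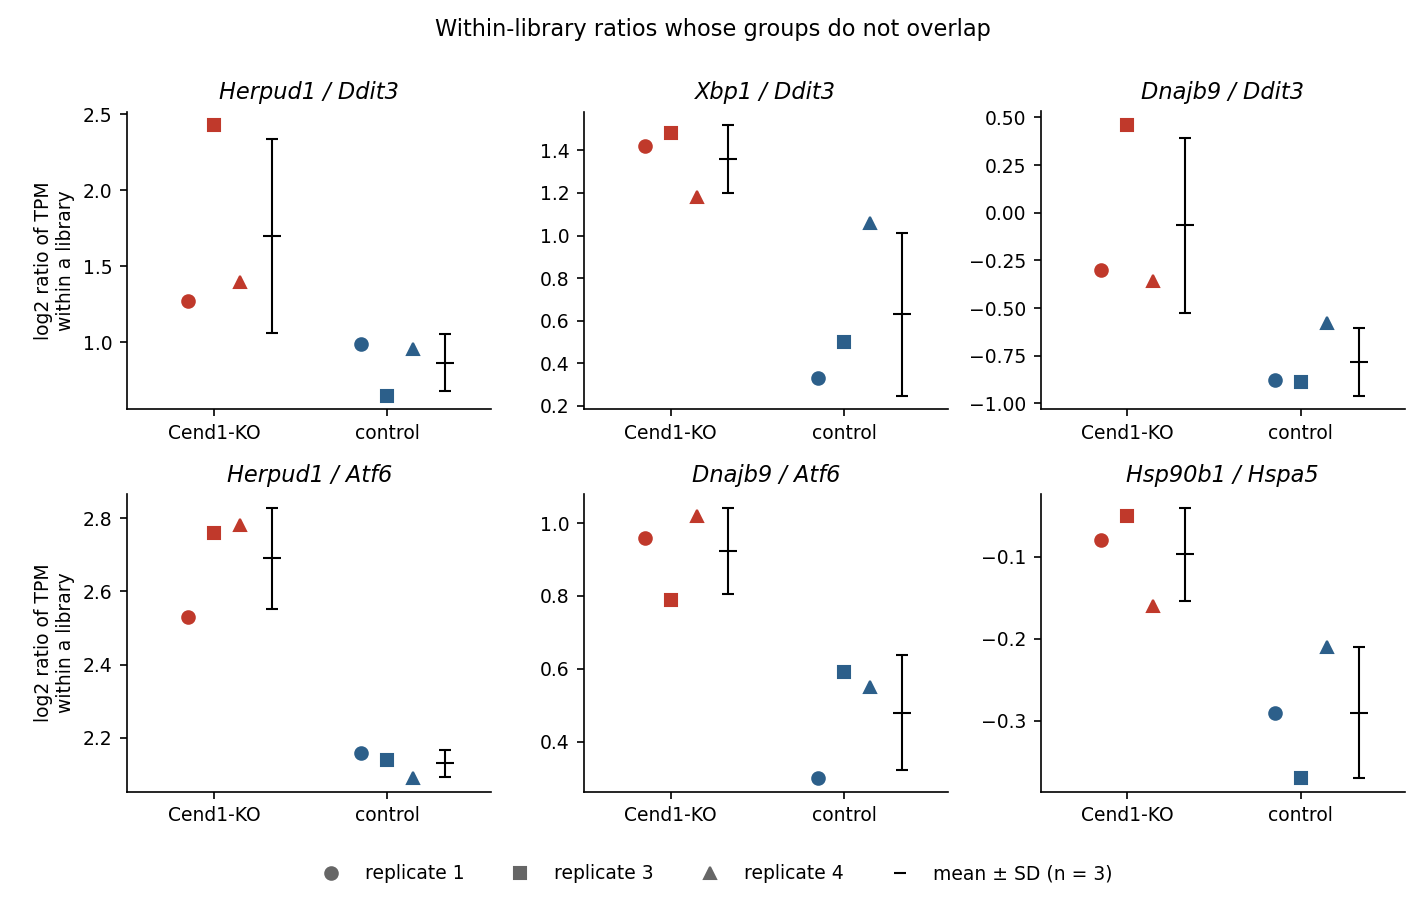
Log2 ratio of TPM within each library for the 6 of 45 gene pairs whose groups do not overlap, Cend1-KO on the left and control on the right of each panel, with the mean ± SD (n = 3 each). Each pair is written in the order that makes its difference positive. The Hsp90b1 to Hspa5 panel shows the smallest difference (0.19) and the Herpud1 to Ddit3 panel the largest (0.83).

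Markers of other cell types differed between the groups as well as between libraries. Their counts of calls stand beside 0.79% of all tested genes called higher as deposited and 6.17% after scaling. As deposited, fibroblast, endothelial, erythroid and adipocyte sums were higher in every Cend1-KO library than in every control. The macrophage and alveolar type II sums overlapped on that scale. After scaling the macrophage sums stood apart as well, at 1496, 1282 and 1821 in Cend1-KO libraries, against 975, 725 and 974 in controls. The smooth muscle and Schwann cell sums also overlapped as deposited and stood apart upward after scaling. The alveolar type II sums overlapped on both scales. Fibroblast markers summed to 5308, 3482 and 3723 TPM in Cend1-KO libraries, against 1997, 1594 and 2964 TPM in controls, with 2 of 10 called higher as deposited and 6 after scaling. Endothelial markers summed to 4916, 2236 and 2871 TPM in Cend1-KO libraries, against 1518, 1646 and 1841 TPM in controls, with 0 of 10 called as deposited and 6 after scaling. Macrophage markers summed to 1856, 915 and 1785 TPM in Cend1-KO libraries, against 1021, 714 and 1096 TPM in controls, with 0 of 10 called as deposited and 4 called higher after scaling. Sftpc, the surfactant protein of alveolar type II cells of the lung, had 437, 0.107 and 703 TPM in Cend1-KO libraries, against values of 0 in every control. Erythroid markers summed to 24500, 10633 and 11796 TPM in Cend1-KO libraries, against 1390, 4474 and 1578 TPM in controls, with 3 of 6 tested called higher as deposited and 5 after scaling. The 8 alveolar type II markers summed to 501, 2.11 and 807 TPM in Cend1-KO libraries, against 3.12, 2.66 and 3.72 TPM in controls, and 0 of the 2 tested were called. Adipocyte markers summed to 4024, 1954 and 2509 TPM in Cend1-KO libraries, against 1236, 1299 and 1519 TPM in controls. Of these, 3 of 4 tested were called higher as deposited (Cfd, Adipoq and Retn). After scaling all 4 were, when Fabp4, which is also in the endothelial list, was added. Fabp4 alone had 4012, 1933 and 2488 TPM in Cend1-KO libraries, against 1236, 1299 and 1517 TPM in controls. It made up nearly all of the adipocyte sum and most of the endothelial sum. Without Fabp4 the endothelial sums of the groups overlap. Among the other endothelial markers, Pecam1, Tek, Vwf and Emcn stood apart upward as deposited, while Cdh5, Kdr, Tie1, Egfl7 and Flt1 overlapped. Cfd, Adipoq and Retn were at 12.7 TPM or lower in every library. Cfd and Retn passed the filter only through the Cend1-KO libraries, since their controls were at 0.430 TPM or lower. Adipoq had 0.0715, 0 and 1.27 TPM in controls. The filter thus favours genes of this list that are high in Cend1-KO, and its count of calls cannot be read as a result. Smooth muscle and pericyte markers had 0 of 6 tested called as deposited and 1 (Rgs5) after scaling, and Schwann cell markers 0 of 3 and 1 (Cnp). No marker list had a gene listed at 0 in all 6 libraries. The part of these cell types in the levels of the 10 genes was not tested.

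The wider ER machinery was followed through 8 lists of 211 other genes, of which 201 were tested. As deposited, 1 of the 201 rose and 0 fell (0.498% called), with a median log2 difference of 0.02 beside -0.11 over all tested genes. After scaling 8 rose and 2 fell (4.98% called), with a median of 0.15 beside 0.00. Both shares lie below those over all tested genes given above, on either scale. By list, the median as deposited was 0.19 for disulfide isomerases and oxidases (21 tested), 0.11 for collagen-folding factors of the ER (19 tested) and 0.10 for stress sensors and their proteases (9 tested). It was 0.02 for other lumenal chaperones (26 tested), -0.01 for translocation and signal peptide removal (32 tested), -0.07 for ER-associated degradation (31 tested), -0.08 for the PERK, ATF4 and integrated stress response (34 tested) and -0.13 for vesicle export and retrieval (29 tested).

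Ddit4, which encodes REDD1, an inhibitor of mTORC1 induced by ATF4 and also by hypoxia and glucocorticoids, was the gene that rose as deposited. Ddit4 had 87.5, 34.0 and 63.8 TPM in Cend1-KO libraries, against 24.1, 22.9 and 19.5 TPM in controls, so every Cend1-KO library was above every control. Its log2 difference was 1.34 ± 0.31 (limma, adjusted p = 0.0440), and 1.48 ± 0.18 after scaling (adjusted p = 0.00192). As deposited, 0 list genes were called higher without Cend1-KO replicate 4 or without any 1 of the controls, so this call rested on all of those libraries. Ddit3, of the same branch, had a difference of -0.43. After scaling the list also held Eif2ak2, which encodes the double-stranded RNA kinase PKR, with a difference of 0.82 (adjusted p = 0.00502). It further held Pck2 with 0.81 (adjusted p = 0.0223) and Nupr1 with 1.08 (adjusted p = 0.0387). So 4 of its 34 tested genes were called higher and 0 lower, beside 6.17% of all tested genes called higher on that scale. The list did not move as a whole: 18 of the 34 were positive after scaling, with a median of 0.03. Mthfd2, with the second smallest p of the list, was negative and not called. Its difference was -0.78 as deposited (limma, adjusted p = 0.163) and -0.65 after scaling (adjusted p = 0.0627).

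Among the other lumenal chaperones 2 of 26 rose after scaling and 0 did as deposited. Of all tested genes, 6.17% were called higher after scaling and 0.79% as deposited. Dnajc3, which encodes the BiP co-chaperone p58IPK, had 20.7, 11.8 and 14.7 TPM in Cend1-KO libraries, against 9.66, 10.4 and 13.1 TPM in controls, and its difference was 0.45 as deposited (limma, adjusted p = 0.444) and 0.58 after scaling (adjusted p = 0.0260). Cnpy4 had a difference of 0.52 as deposited (adjusted p = 0.435) and 0.63 after scaling (adjusted p = 0.0411). Calu, a calcium-binding protein of the secretory pathway, had 0.49 as deposited (adjusted p = 0.373) and 0.63 after scaling (adjusted p = 0.0525) and was not called.

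Among the disulfide isomerases and oxidases, a pair of membrane-bound thioredoxin-related proteins moved in opposite directions after scaling. Tmx2 had 44.0, 34.1 and 36.5 TPM in Cend1-KO libraries, against 63.8, 68.7 and 68.7 TPM in controls, with a difference of -0.80 as deposited (limma, adjusted p = 0.0956) and -0.67 after scaling (adjusted p = 0.0272). Tmx3 had 22.5, 15.8 and 13.3 TPM in Cend1-KO libraries, against 9.88, 9.91 and 12.3 TPM in controls, with 0.61 as deposited (adjusted p = 0.282) and 0.74 after scaling (adjusted p = 0.0267). Both had groups that did not overlap as deposited, where 18.6% of all tested genes stood apart downward and 5.67% upward.

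In ER-associated degradation 0 of 31 genes were called as deposited and 1 fell after scaling, where 4.14% of all tested genes were called lower. Rnf5, a membrane-bound ubiquitin ligase, had a difference of -0.76 as deposited (limma, adjusted p = 0.230) and -0.63 after scaling (adjusted p = 0.0531). Dnajb2, a J-domain co-chaperone, had -0.71 as deposited (adjusted p = 0.230) and -0.58 after scaling (adjusted p = 0.0439). Both were negative where Herpud1 of the same machinery was positive.

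In the remaining lists 1 gene was called after scaling and 0 as deposited. Of the sensors, Eif2ak3, which encodes PERK, had 0.20 as deposited (limma, adjusted p = 0.749) and Nfe2l1, an ER-anchored transcription factor, had -0.27 (adjusted p = 0.706). Of translocation, Srpr, the signal recognition particle receptor, had -0.46 (adjusted p = 0.396) and Dad1, an oligosaccharyltransferase subunit, had -0.40 (adjusted p = 0.417). Of vesicle transport, Yif1a had -0.62 (adjusted p = 0.221) and Sec13, a COPII coat protein, had -0.45 (adjusted p = 0.407), while Kdelr3, a receptor that returns ER proteins, rose after scaling (0.55, adjusted p = 0.0409). Of the collagen-folding factors, the prolyl isomerases Fkbp7 and Fkbp9 had 0.49 (adjusted p = 0.396) and 0.35 (adjusted p = 0.559).

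**Figure D5:**
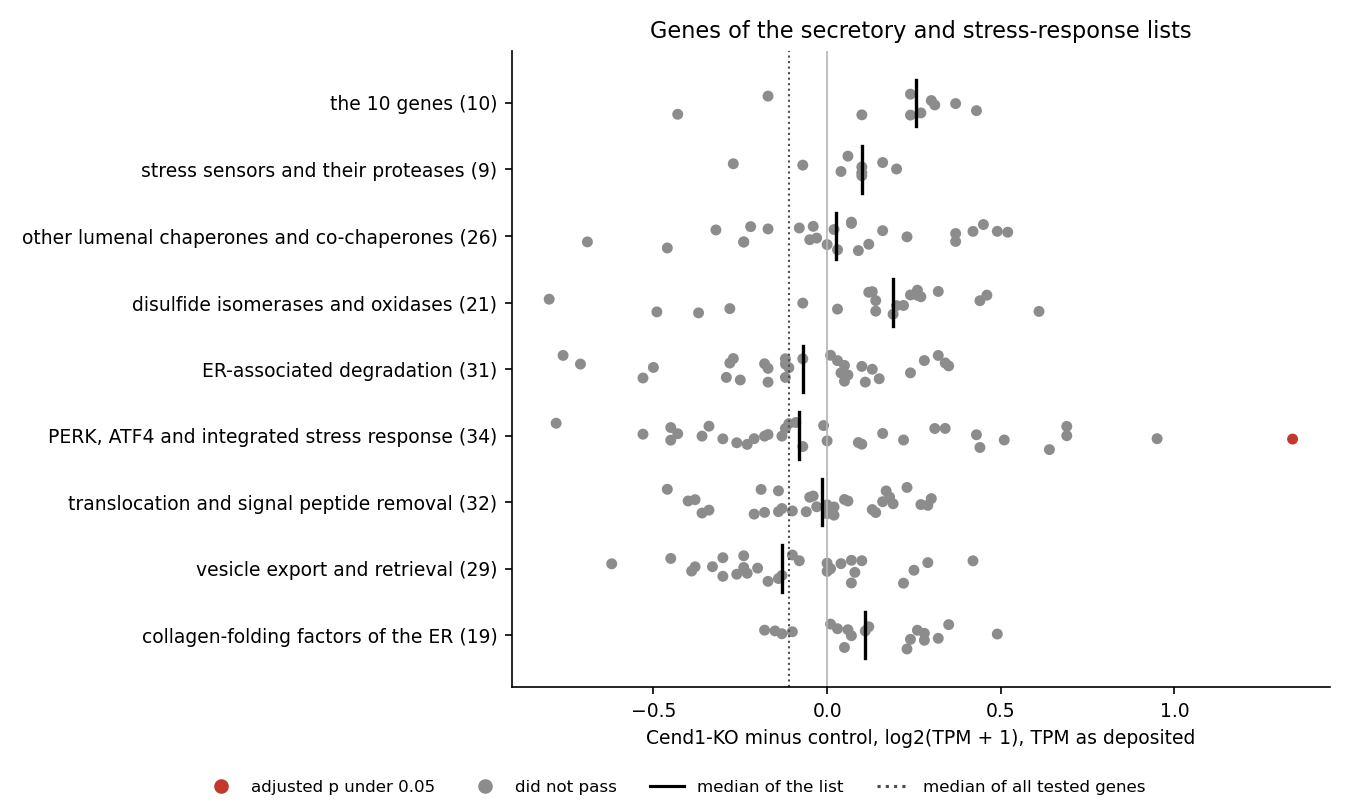
Log2 difference, Cend1-KO minus control, of the 10 genes and of each tested gene of the 8 lists, as deposited, with a bar at each median, called genes in red and a dotted line at the median of all tested genes (-0.11). Ddit4, at 1.34, is the called gene, and the median of the 10 genes (0.25) lies beside list medians from -0.13 to 0.19.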

How the data were processed

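Per the labels' protocols, ventricle RNA was extracted with TRIzol and sequenced from NEBNext Ultra RNA libraries. The submitters' processing notes name HISAT2 2.0.5, featureCounts 1.5.0-p3, fastp, CASAVA and build mm10. How TPM followed from reads is not given in the sources used here. Values deposited by the authors are TPM, with a total of 1000000 in every library. Columns were assigned by the sample descriptions: replicate numbers here are those of the titles, so Cend1-KO replicate 3 is the column C1KO-2 and replicate 4 the column C1KO-3, and control columns are named WT. GENCODE M21 gave symbols and coordinates for 52029 of 57010 identifiers, on the same build.

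Log2(TPM + 1) was fitted with limma 3.58.1 in R 4.3.3 (trended variance, robust prior) for genes that reached 1 TPM in 3 or more libraries, and genes were called at a Benjamini-Hochberg adjusted p under 0.05 over all 13542 genes. Differences are Cend1-KO minus control on this scale, which understates changes of low genes. The fit was tested on simulated data without library-wide shifts, so that test says nothing of how such shifts affect the calls. Count tests do not apply to TPM. Scaled values were divided by median-of-ratios factors. Named genes are Cend1, Kdm1a, the 10 genes, list genes that were called (otherwise the 2 with the smallest p in a list) and the 5 most like Hspa5. List genes called only after scaling, and Mthfd2, Igkc, Ighm, Xist, Sftpc and the single endothelial markers, were named after their values were seen. The 10 genes and all lists were chosen with earlier results of these data known. The alternatives were other scalings, pseudocounts, filters and fits, a replicate block and leaving out each library.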

Additional observations from a re-analysis of the deposited data

How the results depend on the processing

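Results were recomputed under 25 alternatives, and 0 of the 10 genes was called lower under any of them. The count called higher was 0 except 2 with Xist and median-of-ratios scaling together and a range of 0 to 1 on leaving out a library, where Cend1-KO replicate 3 gave Sdf2l1. Without Cend1-KO replicate 1, the library with the highest chaperone levels, the sign turned for Hspa5 (-0.05), Pdia4 (-0.07), Creld2 (-0.19) and Sdf2l1 (-0.02) as deposited, but not after scaling (0.27, 0.24, 0.10 and 0.26), and Creld2 also turned without Cend1-KO replicate 4 (-0.06 as deposited, 0.07 after scaling); over the libraries left out, the highest differences as deposited were 0.43, 0.63, 0.56 and 0.83. Atf6 turned to 0.06 when mitochondrial and hemoglobin genes were left out, and, after scaling, to 0.05 without Cend1-KO replicate 1 or 4 and to 0.02 without control replicate 1; as deposited it ran from -0.25 to -0.10 over the libraries left out. The cause was not tested. List genes called higher, 1 as deposited, numbered 8 with median-of-ratios or upper-quartile scaling, 6 without mitochondrial and hemoglobin genes, 0 with no filter, a filter at 5 TPM, no robust prior or no trend, 14 with Xist and scaling, and 0 to 9 on leaving out a library on either scale. Those called lower, 0 as deposited, numbered 2 with median-of-ratios scaling, 3 with upper-quartile scaling, 1 without mitochondrial and hemoglobin genes, 5 with Xist and scaling, and 0 to 2 on leaving out a library. Ratio pairs that did not overlap numbered 6 to 19 on leaving out a library. With fewer libraries, groups stand apart more often by random order alone, so these counts cannot be set against the 6 from all libraries. The highest list count without 1 library was 3 as deposited, without Cend1-KO replicate 3. Same-numbered libraries did not deviate together (correlations of -0.18, 0.05 and -0.11), so the numbers are not taken as pairs; with the replicate block 0 of the 10 genes were called, list calls were 2 higher and 0 lower, and with scaling as well 6 higher and 1 lower. With no filter, 0 of 30114 genes were called and 2894 had an unadjusted p under 0.05. The depth behind these values is unknown.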
